A study of Mus musculus with 45 samples.

Results

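The 40 mitosis and spindle genes are genes whose products take a cell into mitosis, attach and move its chromosomes and divide the cell. They were chosen by gene symbol from the 28196 genes of the deposited tables. All 40 were found, and all 40 passed the filter on low values. Expression was measured by RNA sequencing in mouse splenic B cells, before and during culture into antibody-secreting cells, in 45 libraries that form 15 groups of 3. All mice were on the C57BL/6 background. The mutant mice carry a deletion of exon 1A of Prdm1 (called dEx1A here), which encodes the repressor Blimp-1, and gave LPS, TLR and BCR cultures of days 4 and 7. Wild type (WT) mice gave LPS cultures of the same days, cultures of days 4, 7 and 10 with the TLR and the BCR stimulus, and the uncultured B cells of day 0. Per the labels' protocols, the TLR culture held irradiated L cells carrying CD40L as feeders, 5 µg/mL of LPS, and 50 ng/mL each of the cytokines IL-4 and IL-5. In the BCR culture, LPS was replaced by 12 µg/mL of anti-IgM/IgG antibody fragments. The feeders were left behind at day 2. The plasmablasts of day 4 were then given 10 ng/mL of IL-6 and 100 ng/mL of APRIL, with lipids and amino acids. The LPS culture is described by its label alone. The labels name the cells of days 4 and 7 plasmablasts and those of day 10 plasma cells. They give all dEx1A and the WT LPS mice as females of 9 weeks and the other WT mice as males of 7 weeks, whereas the protocol text calls the mice matched for sex and age.

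Mitosis starts when CDK1, bound to cyclin B, is switched on by CDC25 phosphatases and by the Polo and Aurora kinases. The spindle assembly checkpoint then holds the cell until every kinetochore is attached to the spindle, after which the anaphase-promoting complex with CDC20 has securin and cyclin B destroyed, separase cuts cohesin and the cell divides. Many of these genes are transcribed from S phase to mitosis through promoters with a cell cycle genes homology region (CHR) and CCAAT boxes, bound by the DREAM complex in resting cells and by B-MYB and FOXM1 in dividing ones. Activated B cells divide repeatedly before they secrete antibody, mature plasma cells do not divide, and Blimp-1 is known as a repressor of genes for division.

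Promoters of many members shared sequence features that the choice by symbol had not used. RefSeq promoter windows (GRCm38.p6), from 250 bases before to 50 bases after the start, were found for 33 of the 40 members and for 27025 genes in all. The CHR form TTTGAA stood on either strand in 24 of the 33 windows (72.7%), against 18.1% of all windows. The form TTTAAA, which reads the same on both strands, was in 9 (27.3%), against 13.2% of all windows. Of the 33 windows, 25 (75.8%) held CCAAT on either strand, against 37.9% of all, and 17 (51.5%) held at least 2, against 12.2% of all. A CHR form together with at least 2 CCAAT boxes was found in 16 of the 33 windows (48.5%), against 3.2% of all windows and 2.8% of the 11439 windows of tested protein-coding genes. An E2F motif, searched on either strand too, was in 1 of the 33 windows (3.0%). This is near the 2.3% of all windows and the 3.8% of windows of tested protein-coding genes. A match is a run of letters and no sign of binding. The windows of Nuf2, Nusap1, Mad2l1 and Pttg1 held neither a CHR form nor CCAAT. The windows of Pttg1, Mad2l1, Kif4 and Kif2c do not include the gene's start in the annotation GENCODE M21. The Pttg1 window reaches upstream to base 43426231 of chromosome 11, inside the gene, which extends to 43426251. The Mad2l1 window starts at base 66534971 of chromosome 6 and lies wholly before the gene's start at 66535390. The Kif4 and Kif2c windows, both counted with CHR forms, lie inside their genes. The Kif4 window begins at base 100625815 of chromosome X, after the gene's start at 100625737. The Kif2c window reaches upstream to base 117179022 of chromosome 4, and the gene extends to 117182639. The 4 members with both features whose TLR rise at day 4 was largest (Hmmr, Cdk1, Ccnb1 and Cenpf) are shown. Bub3, a checkpoint gene that rose far less and whose window also holds both features, is shown with them. Each run gives 280 bases, 5′ to 3′ on the gene's strand and ending 30 bases after the start, with CHR forms and CCAAT boxes of either strand in capitals. They lie at chr11:40733408-40733687 (Hmmr, minus strand), chr10:69352883-69353162 (Cdk1, minus strand), chr13:100786457-100786736 (Ccnb1, minus strand), chr1:189688057-189688336 (Cenpf, minus strand) and chr7:131560120-131560399 (Bub3, plus strand).
Hmmr: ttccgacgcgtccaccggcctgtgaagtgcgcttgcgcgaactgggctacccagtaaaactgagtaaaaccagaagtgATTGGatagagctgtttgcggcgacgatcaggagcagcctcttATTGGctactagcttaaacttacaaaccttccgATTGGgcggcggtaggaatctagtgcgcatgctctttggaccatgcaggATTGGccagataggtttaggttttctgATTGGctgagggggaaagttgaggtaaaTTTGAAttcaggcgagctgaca
Cdk1: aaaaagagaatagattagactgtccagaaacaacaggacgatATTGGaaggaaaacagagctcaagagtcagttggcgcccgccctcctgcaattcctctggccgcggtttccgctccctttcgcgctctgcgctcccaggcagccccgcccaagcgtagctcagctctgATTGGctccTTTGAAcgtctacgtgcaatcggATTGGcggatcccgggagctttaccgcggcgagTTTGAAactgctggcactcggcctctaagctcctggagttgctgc
Ccnb1: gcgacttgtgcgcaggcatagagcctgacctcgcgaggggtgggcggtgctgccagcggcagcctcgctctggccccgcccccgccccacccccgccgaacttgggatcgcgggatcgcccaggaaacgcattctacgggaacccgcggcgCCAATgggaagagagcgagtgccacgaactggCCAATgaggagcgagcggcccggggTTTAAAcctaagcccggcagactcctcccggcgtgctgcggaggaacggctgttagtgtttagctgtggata
Cenpf: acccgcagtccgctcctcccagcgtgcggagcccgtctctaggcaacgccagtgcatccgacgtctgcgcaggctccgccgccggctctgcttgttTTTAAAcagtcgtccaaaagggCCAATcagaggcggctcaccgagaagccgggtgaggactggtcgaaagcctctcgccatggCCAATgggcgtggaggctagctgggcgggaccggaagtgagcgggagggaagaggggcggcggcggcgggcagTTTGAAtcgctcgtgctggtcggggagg
Bub3: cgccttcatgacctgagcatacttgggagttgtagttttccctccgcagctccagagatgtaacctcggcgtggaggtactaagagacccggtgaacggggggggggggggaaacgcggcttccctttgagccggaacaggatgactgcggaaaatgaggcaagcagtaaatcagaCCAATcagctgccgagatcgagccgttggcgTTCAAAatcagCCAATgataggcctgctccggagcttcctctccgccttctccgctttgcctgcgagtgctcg
In the Cdk1 window TTTGAA occurs 2 times, the second copy close to the start, and in the Ccnb1 window the only CHR form is TTTAAA. The Bub3 window carries TTTGAA on the other strand, so that it is printed as TTCAAA. All marked motifs of Bub3 lie inside the annotated gene, which starts at base 131560222 of chromosome 7. The CHR form of Ccnb1 also lies inside its gene, which extends to base 100786570 of chromosome 13.

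Values are given on the log2 scale of the deposited variance-stabilised expression, on which a count of 0 reads 3.04 and 1 unit is close to a 2-fold change for well expressed genes. Levels are compared between samples of 1 gene and not between genes. Depth, taken as the gene reads recovered from the tables, was 15.14 to 35.61 M (1e6 reads) per library, with a median of 23.28 M. The libraries fell in 2 sets, a division made after the values were seen. All dEx1A day 7 groups and both WT LPS groups formed 1 set of 15 libraries with 15.14 to 19.59 M reads, and the other 30 libraries had 20.27 to 35.61 M. GC-rich genes stood higher in the first set: the median deviation of the most GC-rich genes less that of the most GC-poor ones was 0.74 to 1.72 there, against -1.93 to 0.61 in the other libraries. In the comparisons that cross the sets, which are dEx1A against WT in LPS at day 4 and in TLR and BCR at day 7, each dEx1A step from day 4 to day 7 and WT LPS at day 4 against day 0, the condition and the set cannot be told apart. The same holds for the differences between genotypes in the change from day 4 to day 7. In every TLR and BCR comparison of the genotypes, genotype also goes with the labelled sex and age, but in LPS it does not. Markers of mature B cells and of plasma cells were read in every group. Over its whole length, so that exon 1A is not seen apart, Prdm1 averaged 11.21, 11.81 and 10.31 in the dEx1A LPS, TLR and BCR cultures of day 7, against 12.61, 13.19 and 12.46 in the same WT cultures. Reads of 11 members can overlap those of another gene's exons (Ccna2, Cdc20, Cdc25b, Cdc25c, Kif20a, Kif4, Nusap1, Plk1, Prc1, Top2a and Ube2c), and the strand setting of the counting is not given in the sources used here. In bulk RNA, fewer dividing cells and less RNA per dividing cell cannot be told apart.

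**Figure D1:**
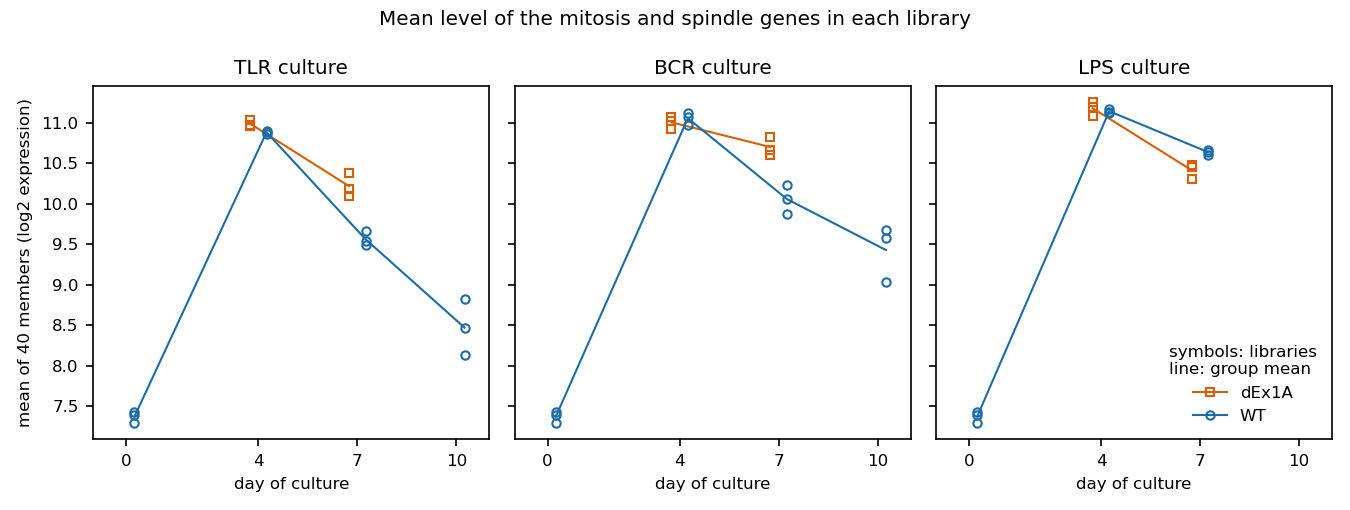
The mean of the 40 members in log2 expression (vertical axis) is plotted against the day of culture (horizontal axis) for each library of the TLR, BCR and LPS cultures, with squares for dEx1A, circles for WT and lines through the group means. All day 4 libraries lie between 10.87 and 11.26, all day 0 libraries between 7.29 and 7.43, and the WT day 10 libraries are spread from 8.13 to 9.68.

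In the WT course the members were low in resting B cells, near their peak at day 4, and lower again at each later day. Their mean over the 40 genes was 7.37 ± 0.07 at day 0 (SD, n = 3). In the TLR culture it was 10.89 ± 0.02 at day 4, 9.56 ± 0.09 at day 7 and 8.47 ± 0.35 at day 10 (SD, n = 3 each). In the BCR culture it was 11.06 ± 0.08, 10.06 ± 0.18 and 9.43 ± 0.35 at the same days. The libraries of day 10 differed most among themselves, with 8.13, 8.82 and 8.46 in TLR and 9.58, 9.68 and 9.03 in BCR. The scale matters for the last day: as a share of all recovered reads the members took 0.039, 0.068 and 0.055% in TLR at day 10, against 0.068, 0.076 and 0.073% at day 0, whereas on the authors' scale, set by size factors, their mean was higher at day 10.

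At day 4 of the TLR culture, 38 of the 40 members were higher than at day 0 and none was lower by limma with Benjamini-Hochberg adjustment, where 24.9% of all tested genes were called higher and 23.5% lower. The median difference was 3.90 over the members and 0.01 over all genes. In the BCR culture, compared with the same day 0 libraries, 37 members were higher and 1 lower, against 26.1% and 24.5% of all genes, with a member median of 4.01. All 6 spindle motors and microtubule binders, all 5 cytokinesis genes and both chromosome genes rose in both cultures, with role medians of 3.73 to 4.25 in TLR and 3.97 to 4.55 in BCR. Fibroblast markers, which the feeder cells express, also stood higher at day 4: 7 of the 8 tested in TLR and 8 of 8 in BCR, with sums of 1611 to 3346 and 2620 to 4856 normalized reads, against 34 to 116 at day 0. In the next step, to day 7, 6 of these 8 fell in TLR and 3 in BCR. In the WT LPS culture of day 4, a comparison that crosses the library sets, none of the 9 tested was higher than at day 0 and the sums were 8 to 16. The part of feeder cells in the members' levels was not tested.

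Among the genes of mitotic entry, 7 of 8 rose in each culture. Cdk1, the kinase that starts mitosis, had 11.57, 11.57 and 11.52 in TLR libraries at day 4, against 6.54, 6.69 and 6.57 at day 0, so that the groups lay far apart. Its difference was 4.95 (SE 0.18, adjusted p = 7.06e-13), or 36.9-fold in normalized reads, which are the recovered reads divided by the size factor. In BCR libraries at day 4 Cdk1 had 11.64, 11.50 and 11.66, and the difference from day 0 was 5.00 (SE 0.18, adjusted p = 6.06e-13). Ccnb1, cyclin B1, had 11.72, 11.72 and 11.84 in TLR at day 4 and 12.14, 11.92 and 12.24 in BCR, against 6.84, 7.07 and 6.87 at day 0. It rose by 4.83 in TLR (SE 0.21, adjusted p = 3.64e-12) and by 5.17 in BCR (SE 0.21, adjusted p = 1.83e-12). Plk1, the Polo kinase that matures centrosomes, was less even, with 9.91, 10.10 and 9.16 in TLR at day 4, against 5.57, 5.81 and 6.05 at day 0 (difference 3.91, SE 0.34, adjusted p = 2.93e-08).

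The largest rise in both cultures belonged to Hmmr, which codes for a microtubule-binding protein of the spindle poles. It had 11.64, 11.57 and 12.00 in TLR at day 4 and 12.06, 11.65 and 12.28 in BCR, against 6.06, 6.39 and 6.18 at day 0. These differences were 5.53 (SE 0.26, adjusted p = 7.5e-12) and 5.79 (SE 0.26, adjusted p = 4.26e-12), or 58.3-fold and 70.4-fold in normalized reads. Cenpf, a kinetochore protein made from late S phase on, had 11.49, 11.40 and 11.86 in TLR at day 4, against 6.52, 6.99 and 6.80 at day 0 (difference 4.81, SE 0.26, adjusted p = 6.83e-11). Top2a, the topoisomerase that untangles sister chromatids, rose by 4.31 in TLR and 4.55 in BCR (SE 0.22 each). Mki67, the coat protein of mitotic chromosomes used as a marker of cycling cells, had 14.29, 14.22 and 14.70 in TLR at day 4 and 14.68, 14.36 and 15.04 in BCR, against 10.12, 10.45 and 10.06 at day 0. Its rise was 4.19 and 4.48 (SE 0.24 each, adjusted p = 1.2e-10 and 4.47e-11).

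A few members did not follow the rest. Cdc25b, a CDC25 phosphatase, had 10.96, 11.03 and 10.52 in TLR at day 4, against 10.93, 11.02 and 10.96 in resting B cells, so that the groups overlapped (difference -0.13, SE 0.19, adjusted p = 0.592). Pttg1, securin, which restrains separase, had 8.74, 8.72 and 8.39 in TLR and 8.20, 8.20 and 8.08 in BCR at day 4, against 8.56, 8.74 and 8.91 at day 0. The TLR and day 0 values overlap (difference -0.12, adjusted p = 0.555), while in BCR Pttg1 was the 1 member that fell (-0.58, SE 0.15, adjusted p = 0.00456). After a correction of each library for GC content and transcript length, Pttg1 was called lower in TLR as well (-0.61, adjusted p = 0.0106). Cenpa, the histone H3 variant that marks centromeres, had 11.44, 11.34 and 11.31 in TLR and 11.12, 11.16 and 11.16 in BCR, against 10.70, 10.92 and 11.07 at day 0. It passed in TLR (0.47, SE 0.15, adjusted p = 0.0174) and not in BCR (0.25, SE 0.15, adjusted p = 0.187). Bub3, which carries checkpoint kinases to kinetochores and is also expressed outside mitosis, had 11.05, 11.15 and 10.77 in TLR at day 4, against 9.93, 10.04 and 9.97 at day 0, a rise of 1.01 (SE 0.14, adjusted p = 7.16e-06).

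**Figure D2:**
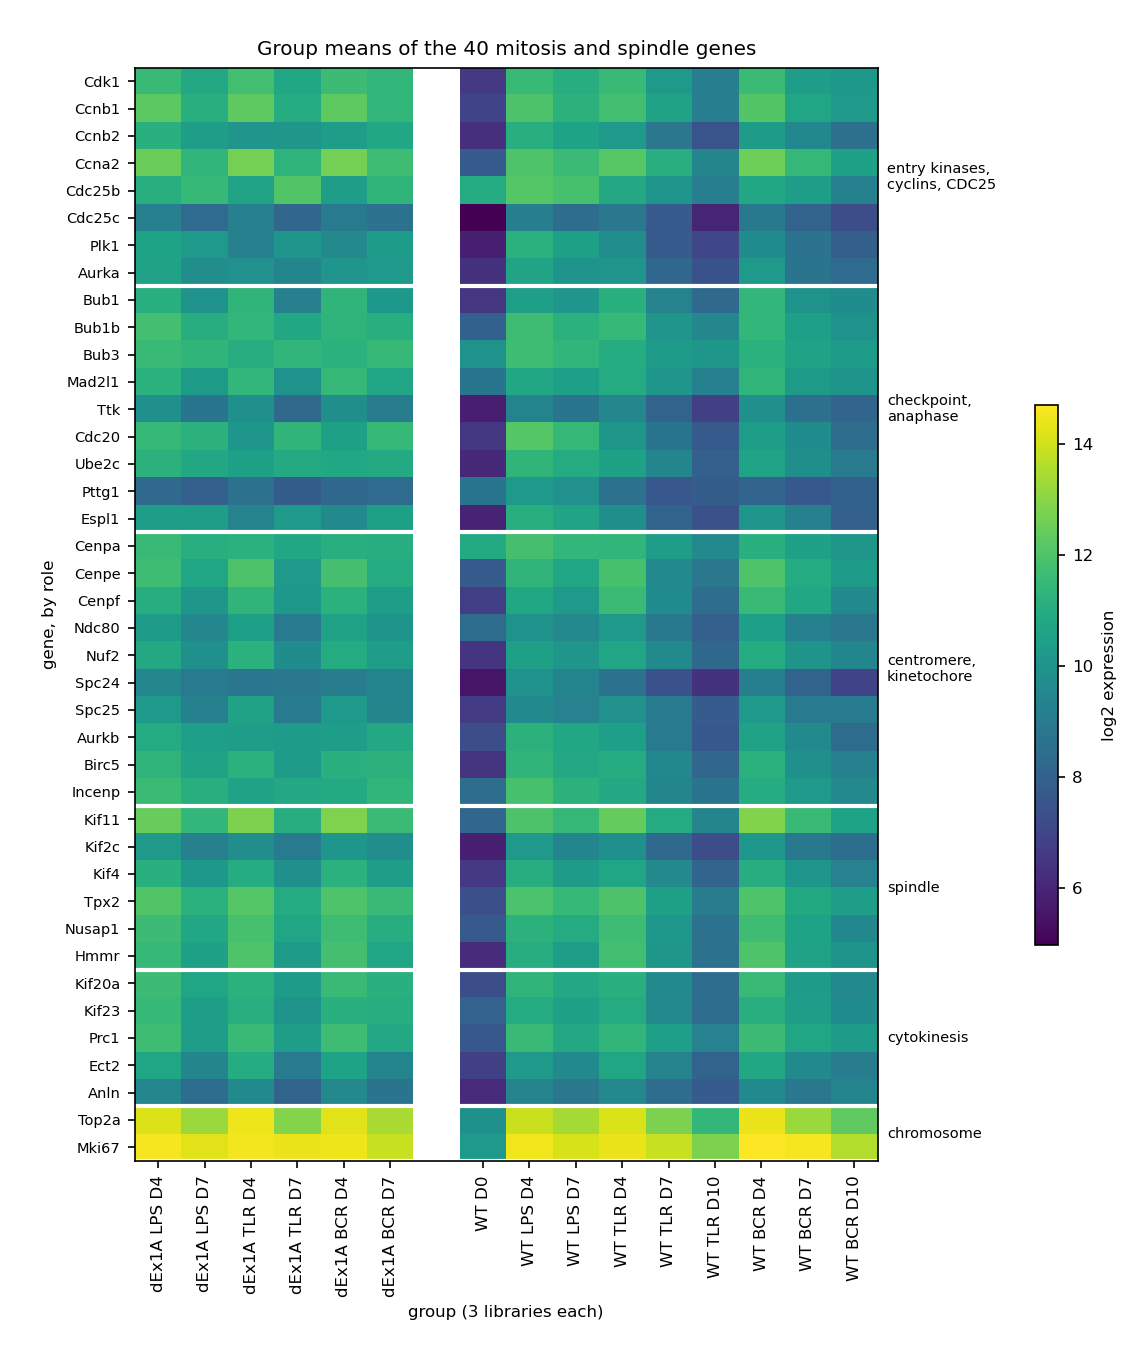
Each cell gives the group mean in log2 expression of 1 member (rows, by role) in 1 of the 15 groups of 3 libraries (columns, dEx1A left of WT), from dark (low) to light (high). Along its own line, each member is darkest at WT day 0 except Cdc25b, Cenpa, Ndc80 and Pttg1, which are darkest in a later WT TLR group, and Pttg1 is lightest in the WT LPS columns.

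Between days 4 and 7 of the TLR culture 39 of the 40 members fell and none rose, where 18.6% of all genes were called lower and 17.7% higher. The member median was -1.38, against -0.06 over all genes. In the BCR culture 33 members fell and none rose, against 15.2% and 15.3% of all genes, with a member median of -1.04. All 6 spindle members, all 5 cytokinesis members, all 10 of the kinetochore and all 17 of entry, checkpoint and anaphase were among those that fell in TLR. Mki67 was the exception there, with 13.59, 13.53 and 14.47 at day 7, against 14.29, 14.22 and 14.70 at day 4 (-0.54, SE 0.24, adjusted p = 0.0873). In BCR it had 14.60, 14.63 and 14.47 at day 7, which overlap the 14.68, 14.36 and 15.04 of day 4 (-0.13, SE 0.24, adjusted p = 0.737). The other BCR members that did not pass were Cdc20, Cdc25b, Espl1, Incenp, Kif23 and Anln.

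The largest TLR falls at day 7 were those of Cenpe, Plk1 and Cenpf. Cenpe, the kinesin that brings chromosomes to the spindle equator, had 9.27, 9.23 and 10.28 at day 7, against 11.74, 11.68 and 12.18 at day 4. It fell by 2.27 (SE 0.30, adjusted p = 1.03e-05), to 0.214 of its day 4 level in normalized reads. Plk1 had 7.46, 8.15 and 7.69, against 9.91, 10.10 and 9.16, and fell by 1.96 (SE 0.34, adjusted p = 0.000184). Cdk1 had 10.28, 10.12 and 10.19, against 11.57, 11.57 and 11.52, and fell by 1.36 (SE 0.18, adjusted p = 1.45e-05). In BCR the members with the largest falls were Aurka, the centrosomal Aurora kinase, by 1.48 (SE 0.28, adjusted p = 0.000559), Bub1, the kinase of the checkpoint, by 1.45 (SE 0.32, adjusted p = 0.00203), and Hmmr by 1.44 (SE 0.26, adjusted p = 0.000288). The values of Bub1 in BCR were 10.23, 10.10 and 9.51 at day 7, against 11.45, 10.98 and 11.75 at day 4.

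The last TLR step, between days 7 and 10, had 29 members that fell and none that rose, where 4.69% of all genes were called lower and 3.51% higher, with a member median of -1.13 against 0.01 over all genes. Cdc25c, a CDC25 phosphatase made in dividing cells, had 5.27, 6.46 and 6.23 at day 10, against 7.72, 7.62 and 7.93 at day 7, and fell by 1.77 (SE 0.23, adjusted p = 0.000159). Ccna2, cyclin A2, had 8.73, 10.03 and 9.53, against 11.25, 10.91 and 11.13, and fell by 1.67 (SE 0.27, adjusted p = 0.0009). Kif11, the motor that pushes spindle poles apart, fell by 1.56 (SE 0.27, adjusted p = 0.00174). All 3 genes were lowest in TLR library 1 of day 10, where Cdk1, at 8.69 against 9.56 and 9.15 in the other libraries, was lowest too. In a fit of these 2 groups alone, 17 members passed in place of 29.

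In the BCR culture 16 members fell from day 7 to day 10 and none rose, against 5.91% and 10.8% of all genes, with a member median of -0.67. Cdc20, the activator of the anaphase-promoting complex, had 8.82, 8.49 and 7.99 at day 10, against 9.16, 9.98 and 9.98 at day 7 (-1.27, SE 0.36, adjusted p = 0.022). Espl1, separase, fell by 1.24 (SE 0.37, adjusted p = 0.0294). Aurkb, the kinase of the chromosomal passenger complex, had 8.71, 8.60 and 7.92, against 9.39, 9.78 and 9.72, and fell by 1.22 (SE 0.19, adjusted p = 0.000406). Cdk1 did not pass, with 10.40, 10.27 and 9.77 at day 10, against 10.35, 10.54 and 10.21 at day 7 (-0.22, SE 0.18, adjusted p = 0.479). Anln, anillin of the cleavage furrow, had a positive difference that did not pass either (0.49, SE 0.32, adjusted p = 0.341). The count of 16 was 0 in a fit of these 2 groups alone and 34 after the GC and length correction, where 16.2% of all genes were called lower.

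Markers of myeloid cells moved with the day 10 libraries. The 10 myeloid markers summed to 19119, 68473 and 25737 normalized reads in TLR libraries 1, 2 and 3 of day 10 and to 180786, 149294 and 30740 in the BCR libraries, against 9935 to 12057 in TLR and 9049 to 14435 in BCR at day 7. None of these markers was at 0. At day 10, 6 of the 10 in TLR and 9 of the 10 in BCR were called higher than at day 7, against 3.51% and 10.8% of all genes. The 8 erythroid and platelet markers moved too. They summed to 46, 2070 and 127 in TLR libraries 1, 2 and 3 of day 10 and to 9241, 4902 and 186 in the BCR ones. At day 7 these sums were 14 to 80 in TLR and 130 to 291 in BCR. The library with the highest myeloid sum in TLR, library 2, also had the highest mean of the members (8.82), and BCR libraries 1 and 2, with the highest sums of all, had member means of 9.58 and 9.68, above the 9.03 of library 3. The part of these cells in the members' levels was not tested. In settings chosen after seeing the data, 17 members fell in BCR without BCR libraries 1 and 2 of day 10, and 30 fell in TLR without TLR libraries 2 and 3. Each setting leaves 1 library at day 10, which is assumed to vary like the other groups, and in both cultures it is the library with the lowest member mean.

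**Figure D3:**
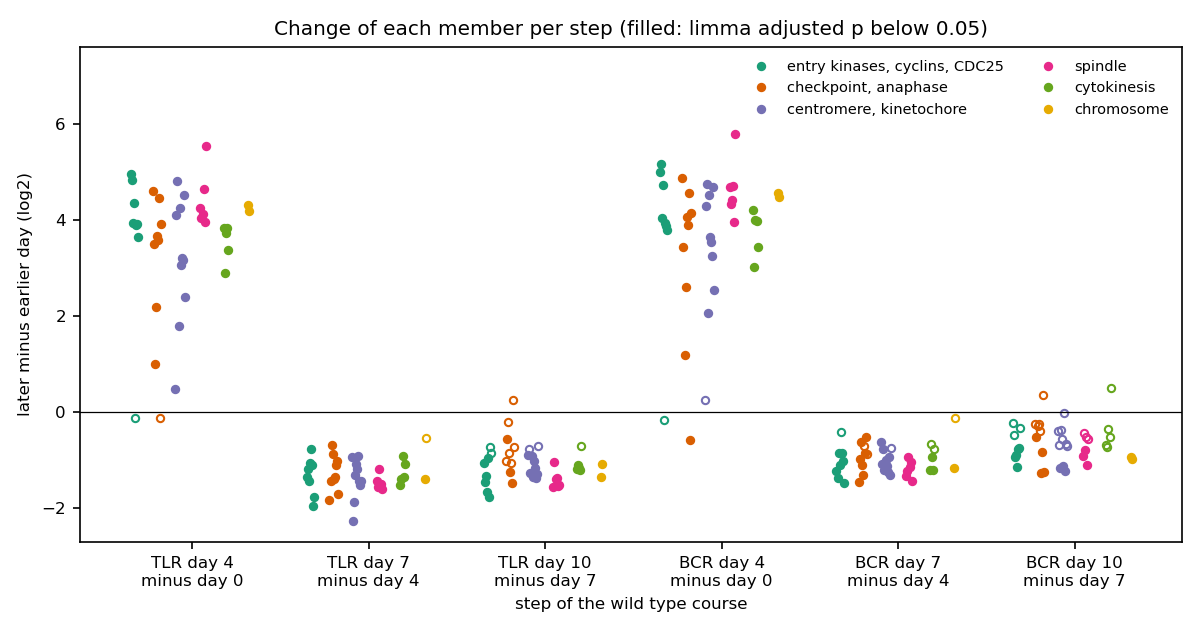
Each point is the log2 difference of 1 member between the later and the earlier day (vertical axis) for the 6 steps of the WT TLR and BCR courses (horizontal axis), coloured by role and filled where limma's adjusted p was below 0.05. Nearly all day 4 points lie high above 0, with medians of 3.90 and 4.01, and nearly all later points lie below it, with medians from -1.38 to -0.67.

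Even so, at day 10 most members stood above resting B cells on the authors' scale. In TLR 31 members were higher than at day 0 and 3 lower, where 22.9% of all genes were called higher and 23.1% lower. In BCR 35 were higher and 3 lower, against 29.5% and 22.8% of all genes. Mki67 had 12.57, 12.95 and 12.84 in TLR and 13.28, 13.58 and 13.89 in BCR at day 10, against 10.12, 10.45 and 10.06 at day 0, so that it was higher by 2.58 and 3.37 (SE 0.24 each, adjusted p = 6.93e-08 and 2.43e-09). Cdk1 was higher by 2.53 in TLR and 3.55 in BCR (SE 0.18 each). The members below resting cells were the same in both cultures: Cdc25b (-1.85 in TLR and -1.74 in BCR), Cenpa (-1.37 and -0.78) and Pttg1 (-0.88 and -0.76). Cdc25b had 9.33, 9.15 and 8.87 in TLR and 9.53, 9.26 and 8.89 in BCR at day 10, against 10.93, 11.02 and 10.96 at day 0. Bub3 was back near its resting level in TLR, with 10.15, 10.03 and 10.13 against 9.93, 10.04 and 9.97 (difference 0.12, SE 0.14, adjusted p = 0.487). Both comparisons share the day 0 libraries.

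**Figure D4:**
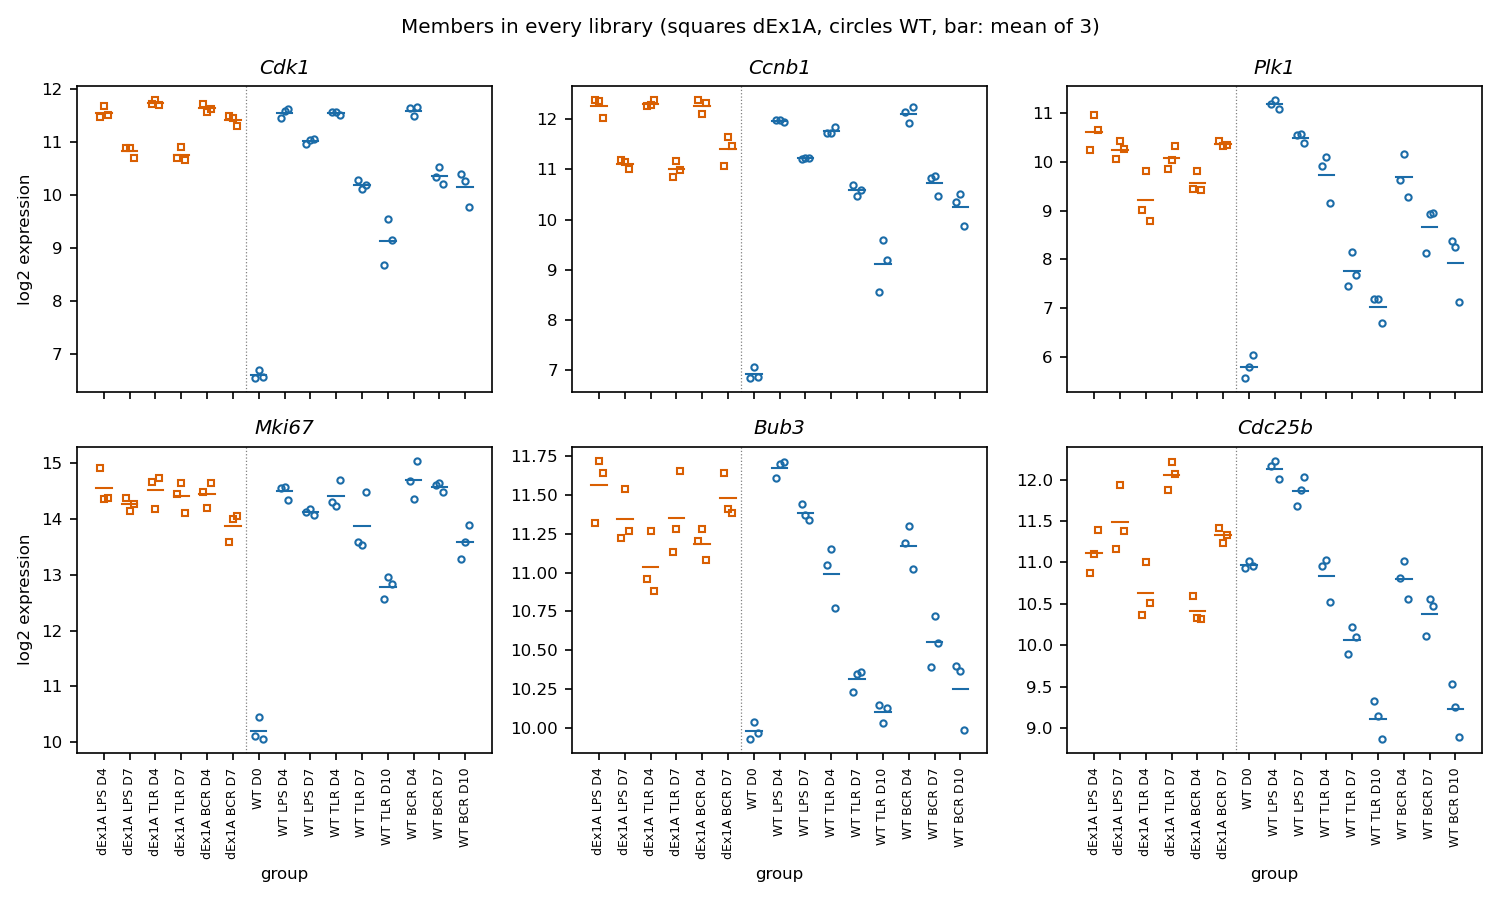
Log2 expression (vertical axes) of Cdk1, Ccnb1, Plk1, Mki67, Bub3 and Cdc25b in every library by group (horizontal axes), with squares for dEx1A, circles for WT and bars at the mean of 3. Cdk1, Ccnb1, Plk1 and Mki67 are lowest in the 3 day 0 libraries, whereas Cdc25b at day 0 (10.93 to 11.02) lies above all WT day 10 libraries (8.87 to 9.53).

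The TLR and BCR stimuli were compared at each day. At day 4 no member passed in either direction, where 4.3% of all genes were called higher in TLR and 3.27% lower; 2 members had an unadjusted p below 0.05, and 2 passed when limma-voom was run on recovered reads. At day 7, 3 members were lower in TLR and none higher, against 2.5% and 3.77% of all genes. Cenpe had 9.27, 9.23 and 10.28 in TLR, against 11.24, 11.08 and 10.49 in BCR (-1.34, SE 0.30, adjusted p = 0.012). Cenpf had 9.47, 9.32 and 10.33, against 11.04, 10.81 and 10.39 (-1.04, SE 0.26, adjusted p = 0.024). The third was Bub1b, the checkpoint protein BubR1 (-0.41, SE 0.12, adjusted p = 0.0461). After the GC and length correction 21 members were lower in TLR, where 5.73% of all genes were, and no member passed when any of TLR library 1 or 2 or BCR library 1 or 2 of day 7 was left out.

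At day 10, 31 members were lower in TLR than in BCR and none higher, where 10.1% of all genes were called lower and 4.29% higher, with a member median of -1.01 against -0.04 over all genes. Cdk1 had 8.69, 9.56 and 9.15 in TLR, against 10.40, 10.27 and 9.77 in BCR, with no overlap (-1.01, SE 0.18, adjusted p = 0.00262). The largest differences were those of Anln (-1.58, SE 0.32, adjusted p = 0.00536), Cenpe (-1.43, SE 0.30, adjusted p = 0.0063) and Bub1 (-1.41, SE 0.32, adjusted p = 0.0102). Anln had 7.08, 8.57 and 7.62 in TLR, against 9.56, 9.90 and 8.56 in BCR, so that the groups overlapped slightly. BCR libraries 1 and 2 had the highest member means and the highest myeloid sums, and the part of myeloid cells in the difference was not tested. With only the 2 groups in the fit no member passed, and the count was 13 without TLR library 1 and 12 without BCR library 2. A setting without BCR libraries 1 and 2, which leaves 1 BCR library, is given with the other settings below. The changes between days were not shown to differ between the stimuli: no member passed the test of the difference between the TLR and BCR changes from day 4 to day 7 (4 at an unadjusted p below 0.05) or from day 7 to day 10 (11 unadjusted), none passed by limma-voom, and 0.826% and 0.0667% of all genes were called lower.

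In the WT LPS culture all 40 members were higher at day 4 than at day 0 and none was lower, where 27.3% of all genes were called higher and 30.8% lower, with a member median of 4.03. This comparison crosses the library sets, and the labelled sex and age also differ between its groups, so that these cannot be told apart from the culture. Cdc20 had 12.13, 12.21 and 12.09 at day 4, against 6.45, 6.38 and 6.76 at day 0 (difference 5.61, SE 0.34, adjusted p = 5.73e-15). Plk1 rose by 5.36 (SE 0.26, adjusted p = 2.27e-17) and Ube2c, the ubiquitin carrier of the anaphase-promoting complex, by 5.24 (SE 0.16, adjusted p = 2.12e-22). All of these are among the 10 most GC-rich members, whose median difference was 4.33, against 3.54 for the 10 most GC-poor ones. After the GC and length correction these medians were 3.81 and 4.04. Members that had not risen in TLR and BCR passed here, among them Cdc25b (1.16, SE 0.18, adjusted p = 2.17e-06) and Pttg1 (1.50, SE 0.15, adjusted p = 3.5e-10). Pttg1 had 10.06, 10.20 and 10.44 at day 4 and 9.75, 9.88 and 10.01 at day 7 of WT LPS, above every other library of the series, the highest of which was a day 0 library with 8.91.

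In LPS the later step lay within 1 library set. From day 4 to day 7 of WT LPS 17 members fell and none rose, against 3.65% and 4.75% of all genes, with a median of -0.51. Kif2c, a kinesin that takes microtubules apart, had 9.43, 9.51 and 9.26 at day 7, against 10.21, 10.31 and 10.11 at day 4 (-0.81, SE 0.13, adjusted p = 0.000107). Ccnb1 had 11.21, 11.23 and 11.23, against 11.98, 11.99 and 11.94 (-0.75, SE 0.13, adjusted p = 0.000296). Prc1, which bundles microtubules of the central spindle, fell by 0.74 (SE 0.13, adjusted p = 0.000385). The count was 37 with only the 2 groups in the fit, 31 after the GC and length correction, where 8.02% of all genes were called lower, and 10 or 11 without WT LPS library 2 or 3 of day 4 or library 3 of day 7. The size of this step was not tested against that of the other WT cultures.

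The deletion of exon 1A was compared with WT at day 4 first. In BCR no member passed, where 1.19% of all genes were called higher in dEx1A and 0.669% lower; 1 member had an unadjusted p below 0.05 and none passed by limma-voom. In TLR 1 member passed as higher and none as lower, against 4.08% and 3.14% of all genes: Ccnb1, with 12.25, 12.27 and 12.38 in dEx1A libraries, against 11.72, 11.72 and 11.84 in WT ones (0.54, SE 0.13, adjusted p = 0.00862). Corrected for GC content and length, the difference was 0.26 and the call was lost (adjusted p = 0.0877), and the count was 7 without WT library 3, 5 without dEx1A library 2 and 0 without WT library 1 or dEx1A library 3. Both comparisons lie within 1 library set. Cdk1 at day 4 of TLR had 11.72, 11.80 and 11.71 in dEx1A, against 11.57, 11.57 and 11.52 in WT.

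In LPS the genotypes were compared at day 4 across the sets and at day 7 within 1 set. At day 4, 4 members were higher and 4 lower in dEx1A, where 12.6% of all genes were called higher and 11.8% lower. Both counts lie near the shares of all genes. Kif23, a motor of the central spindle (0.53), Ccna2 (0.50), Spc25 of the outer kinetochore (0.62) and Ttk, a checkpoint kinase (0.49), were the higher ones. Pttg1 (-1.95), Cdc25b (-1.01), Spc24 of the same kinetochore complex (-0.47) and Cenpa (-0.27) were the lower ones. After the GC and length correction 2 were higher and 4 lower, against 14.7% and 13.3% of all genes, and the calls of Spc25 (0.21, adjusted p = 0.178), Ttk (0.16, adjusted p = 0.319) and Spc24 (-0.32, adjusted p = 0.0685) were lost. Leaving out 1 library gave 3 to 9 members. Plasma cell markers moved with this comparison, 6 of 8 being lower in dEx1A, and their part was not tested. At day 7 Pttg1 was the 1 member called, as lower, where 3.78% of all genes were called lower and 3.3% higher. Pttg1 had 8.0, 8.11 and 7.74 in dEx1A LPS at day 7, against 9.75, 9.88 and 10.01 in WT LPS (-1.93, SE 0.15, adjusted p = 1.83e-11), and 8.18, 8.33 and 8.34 against 10.06, 10.20 and 10.44 at day 4 (adjusted p = 1.56e-11). The dEx1A values are close to those of TLR and BCR libraries of both genotypes, which ran from 7.45 to 8.87, so that the WT LPS libraries stand apart. Cdk1 in LPS at day 7 had 10.90, 10.89 and 10.71 in dEx1A, against 10.97, 11.04 and 11.06 in WT (-0.19, SE 0.09, adjusted p = 0.30).

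At day 7 of the TLR and BCR cultures the members were higher in dEx1A than in WT, in comparisons that cross the library sets. In TLR 25 members were higher and none lower, where 26.2% of all genes were called higher and 28.7% lower, with a member median of 0.46 against -0.04 over all genes. In BCR 25 were higher and 1 lower, against 25.8% and 25% of all genes, with a member median of 0.65. The largest differences in TLR were those of Cdc20, Plk1 and Espl1. Cdc20 had 11.23, 11.21 and 11.61 in dEx1A, against 8.29, 9.15 and 8.86 in WT (2.58, SE 0.34, adjusted p = 3.75e-07), or 6.05-fold in normalized reads. Plk1 had 9.84, 10.03 and 10.32, against 7.46, 8.15 and 7.69 (2.30, SE 0.26, adjusted p = 2.76e-08). Espl1 was higher by 2.12 (SE 0.32, adjusted p = 2.9e-06). In BCR the largest were Cdc20 (1.77, SE 0.34, adjusted p = 7.82e-05), Plk1 (1.69, SE 0.26, adjusted p = 3.03e-06) and Aurka (1.53, SE 0.18, adjusted p = 4.85e-08). Of the 8 genes of mitotic entry 7 were higher in each culture, and of the 5 cytokinesis genes 2 were.

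Cdk1 had 10.70, 10.91 and 10.67 in dEx1A TLR at day 7, against 10.28, 10.12 and 10.19 in WT TLR (0.56, SE 0.09, adjusted p = 1.28e-05). In BCR it had 11.50, 11.45 and 11.30, against 10.35, 10.54 and 10.21 (1.05, SE 0.09, adjusted p = 2.55e-10). Birc5, survivin of the passenger complex, had 11.58, 11.15 and 10.95 in dEx1A BCR, against 9.82, 10.08 and 9.64 in WT BCR (1.38, SE 0.13, adjusted p = 8.58e-10). Bub3 was higher by 1.04 in TLR and 0.92 in BCR (SE 0.13 each). The groups of all 4 comparisons given for Cdk1 and Bub3 did not overlap. Mki67 went the other way in BCR, with 13.59, 13.99 and 14.05 in dEx1A, against 14.60, 14.63 and 14.47 in WT (-0.69, SE 0.21, adjusted p = 0.0074), a call that was lost after the GC and length correction, where the difference was 0.06 (adjusted p = 0.728).

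GC content moved with these differences. Across the 40 members, which are no independent samples and share the same libraries, the difference went with the GC content of the transcript at a Pearson r of 0.89 in TLR and 0.75 in BCR. The 10 most GC-rich members had a median difference of 1.47 in TLR, and the 10 most GC-poor ones 0.07. In BCR these medians were 1.25 and 0.29. After the GC and length correction they were 0.81 and 0.85 in TLR and 0.67 and 0.73 in BCR, and r was 0.15 and -0.03. The corrected calls were 39 members higher and none lower in TLR, where 20.9% of all genes were called higher, and 37 higher and none lower in BCR, where 21% were, with member medians of 0.83 and 0.71. Corrected differences were 1.48 for Cdc20, 1.18 for Plk1 and 0.87 for Cdk1 in TLR, and 0.88, 0.86 and 1.23 for the same genes in BCR. Hmmr, at 0.12 in TLR and 0.15 in BCR before the correction (adjusted p = 0.638 and 0.576), was at 0.87 and 0.61 after it (adjusted p = 4.51e-08 and 1.07e-05). Sums of the 12 fibroblast markers (the L cell feeders are fibroblasts) were 4965 to 7019 normalized reads in dEx1A BCR at day 7, against 477 to 599 in WT BCR, and 627 to 688 in dEx1A TLR, against 77 to 212 in WT TLR. Of the 9 that passed the filter, 2 were higher in dEx1A in BCR and 3 in TLR. Dcn and Postn were at 0 in all 3 libraries of dEx1A BCR, and Col3a1 and Dcn in those of WT BCR. Myeloid sums were 8099 to 23462 in dEx1A BCR, against 9049 to 14435 in WT BCR. Of the 8 plasma cell markers, 7 were lower in dEx1A in BCR, with a median of -1.25, and in TLR 5 were lower and 1 higher. Their sums were 54387 to 95553 normalized reads in dEx1A BCR, against 438336 to 584987 in WT BCR, and 370848 to 451906 in dEx1A TLR, against 1143769 to 1657428 in WT TLR. Of the 8 mature B cell markers 5 were lower in dEx1A in each culture and none higher. The part of the library set, of the labelled sex and age and of these cells in the genotype differences was not tested.

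**Figure D5:**
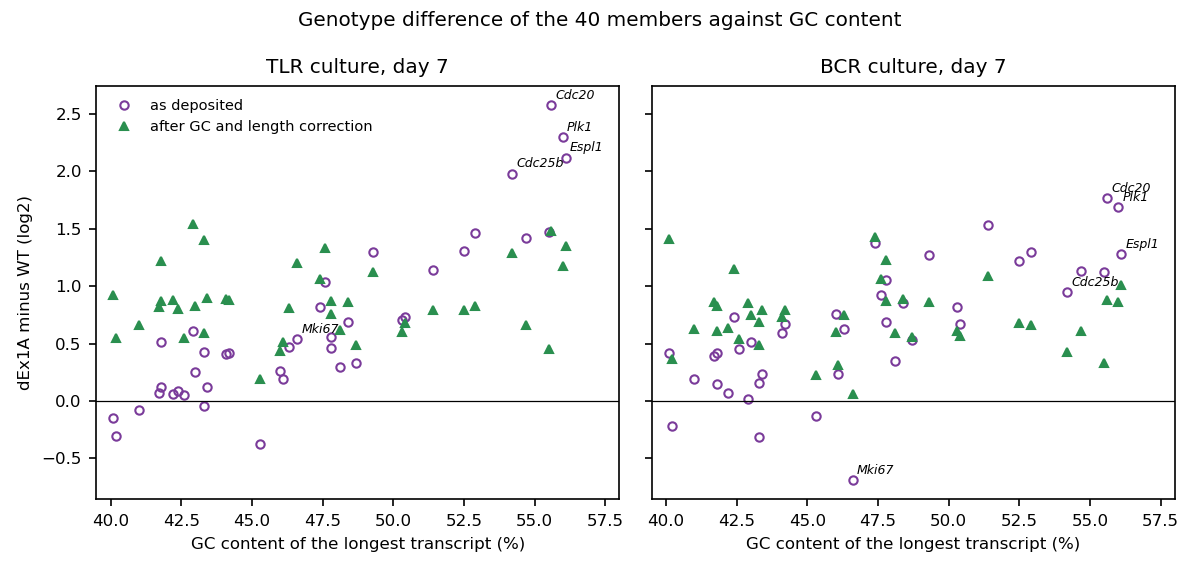
For each of the 40 members the log2 difference of dEx1A minus WT at day 7 (vertical axis) is plotted against the GC content of its longest transcript in percent (horizontal axis), in TLR and BCR cultures, as deposited (circles) and after the GC and length correction (triangles). The circles climb with GC content (r of 0.89 and 0.75), whereas the triangles lie level around medians of 0.83 and 0.71.

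Within dEx1A the step from day 4 to day 7 crosses the sets as well. In LPS 33 members fell and none rose, where 17.8% of all genes were called lower and 16.3% higher, with a median of -0.88. In TLR 29 fell and 6 rose, against 32.8% and 29.3% of all genes, with a median of -1.05, and in BCR 24 fell and 6 rose, against 27.7% and 26.2%, with a median of -0.40. The 6 that rose in TLR were Plk1 (0.86), Cdc20 (1.28), Cdc25b (1.42), Espl1 (0.90), Bub3 (0.32) and Ube2c (0.40). In BCR they were Plk1 (0.80), Cdc20 (0.96), Cdc25b, Espl1, Aurkb (0.44) and Ccnb2, cyclin B2. After the GC and length correction the signs of Plk1, Espl1 and Ube2c turned in TLR, to -0.46, -0.30 and -0.81, and those of Plk1, Cdc20 and Aurkb in BCR, to -0.22, -0.03 and -0.03. The corrected counts in TLR were 3 higher and 32 lower, against 26% and 36.4% of all genes. In BCR they were 3 higher and 12 lower, against 19.5% and 30.9% of all genes. The corrected BCR count of lower members lies near the share of all genes. Hmmr fell under both settings in TLR, with 10.23, 10.53 and 10.01 at day 7, against 12.05, 11.76 and 12.26 at day 4 (-1.77, adjusted p = 1.59e-08, and -0.77 after correction).

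For part of the members in TLR and BCR, the change from day 4 to day 7 differed between the genotypes in the tests of that difference. Only the dEx1A libraries change set between these days, so that genotype and library set cannot be told apart here. In TLR and BCR genotype also goes with the labelled sex and age. In TLR the day 4 to day 7 change of 17 members was more positive in dEx1A than in WT and of none more negative, where 24.3% of all genes were called higher and 25.1% lower. In BCR this held for 22 members and none, against 16.4% and 17.5% of all genes. In LPS 1 member passed, Kif23 as lower (-0.68, SE 0.21, adjusted p = 0.0481), where 2.18% of all genes were called lower, and leaving out 1 library gave 0 to 2. That count lies near the share of all genes. The smallest adjusted p in TLR belonged to Cdc25b (2.19, SE 0.26, adjusted p = 3.11e-07), Aurkb (1.40, SE 0.17, adjusted p = 6.12e-07) and Plk1 (2.81, SE 0.36, adjusted p = 1.26e-06). In BCR it belonged to Aurkb (1.36, SE 0.17, adjusted p = 6.89e-07), Cdk1 (1.01, SE 0.13, adjusted p = 1.46e-06) and Birc5 (1.40, SE 0.19, adjusted p = 1.5e-06). The GC and length correction gave 36 members in each culture, where 16.8% of all genes were called higher in TLR and 14.4% in BCR, and corrected values of 0.76 and 1.19 for Cdk1. Before the correction the difference of changes went with GC content across the members, at an r of 0.91 in TLR and 0.80 in BCR. Corrected values in TLR were 1.20 for Cdc25b, 0.74 for Aurkb and 1.33 for Plk1, and in BCR 0.87 for Aurkb and 1.49 for Birc5. The median of the 10 most GC-rich members in TLR was 1.61 before the correction and 0.81 after it, and that of the 10 most GC-poor ones -0.30 and 0.79.

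The dEx1A cultures were also compared with one another, within 1 library set at each day. At day 4 no member passed between TLR and BCR, where 7.39% of all genes were called higher in TLR and 9.28% lower. An unadjusted p below 0.05 was found for 4 members, and 1 passed by limma-voom. With the replicate numbers as a block 3 were lower in TLR. Libraries with the same number deviated together here, but the labels do not give them as pairs. At day 7, 26 members were lower in TLR than in BCR and 1 higher, against 18.3% and 13.2% of all genes, with a median of -0.52. Kif23 had 9.97, 10.34 and 9.72 in TLR, against 10.92, 11.20 and 10.98 in BCR (-1.02, SE 0.15, adjusted p = 1.92e-06). Ndc80, the core of the outer kinetochore, differed by -1.02 (SE 0.16, adjusted p = 1.11e-05) and Bub1 by -0.91 (SE 0.23, adjusted p = 0.00301). Cdc25b was the higher one, with 11.87, 12.21 and 12.07 in TLR, against 11.42, 11.23 and 11.33 in BCR (0.72, SE 0.18, adjusted p = 0.00238). With only the 2 groups in the fit 15 were lower and 1 higher. All 8 plasma cell markers were higher in TLR than in BCR, with a median of 1.44, and 2 of the 9 tested fibroblast markers were lower, and the part of these cells was not tested.

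Between LPS and TLR, 16 members were higher in dEx1A LPS at day 4 and 1 lower, where 21.1% of all genes were called higher and 24.2% lower. The largest differences were those of Cdc20 (1.42, SE 0.34, adjusted p = 0.0012), Plk1 (1.40, SE 0.26, adjusted p = 5.48e-05) and Ccnb2 (1.11, SE 0.14, adjusted p = 1.77e-07), and the lower member was Hmmr (-0.53, SE 0.20, adjusted p = 0.034). The difference went with GC content across the members (r of 0.89), and after the GC and length correction 23 members were higher, where 19.6% of all genes were, and none lower, with Hmmr at -0.05 (adjusted p = 0.736). Plk1 had 10.23, 10.96 and 10.64 in LPS, against 9.02, 9.81 and 8.79 in TLR. At day 7, 4 members were higher in LPS (Bub1, Cenpa, Ndc80 and Kif20a, a cytokinesis motor) and Cdc25b was lower, against 7.79% and 9.57% of all genes. These counts lie near or below the shares of all genes. The count of both directions was 0 with only the 2 groups in the fit or without TLR library 3. It was 1 to 3 without each of the LPS libraries or TLR library 1. Fibroblast markers summed to at most 29 normalized reads in every LPS library, against 1619 to 2796 in dEx1A TLR at day 4, and their part in these differences was not tested.

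Other genes of the same machinery were counted on lists that were chosen with earlier results known. At day 4 of TLR against day 0, 36 of 36 further mitotic genes, 22 of 27 further centromere and kinetochore genes, 13 of 16 condensin and cohesin genes and 32 of 34 DNA replication genes were higher, and 1 replication gene was lower, where 24.9% of all genes were called higher and 23.5% lower. Psrc1, a spindle protein, led the mitotic list (5.51, SE 0.23, adjusted p = 2.79e-12), and Ncapg, a condensin subunit, its own list (4.74, SE 0.27, adjusted p = 1.49e-10). Of the 16 subunits and regulators of the anaphase-promoting complex 6 were higher and none lower, with a median of 0.32; Fbxo5, the inhibitor Emi1, had the largest difference (1.26, SE 0.21, adjusted p = 8.97e-05). From day 4 to day 7 of TLR 34 of the 36 mitotic, 18 of the 27 kinetochore, 12 of the 16 condensin and cohesin, 5 of the 16 anaphase-promoting complex and 30 of the 34 replication genes fell, and 1 kinetochore and 1 anaphase-promoting complex gene rose, against 18.6% of all genes lower and 17.7% higher. The shares of the anaphase-promoting complex list lie not far from those of all genes. Tyms, thymidylate synthase, had 8.32, 8.24 and 8.50 at day 7, against 10.96, 11.08 and 11.06 at day 4 (-2.68, SE 0.17, adjusted p = 1.67e-09).

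Genes on a list of regulators of cell cycle genes were mixed. Of 21, 10 were higher at day 4 of TLR and 3 lower, against 24.9% and 23.5% of all genes. From day 4 to day 7, 9 fell and 1 rose, against 18.6% and 17.7% of all genes. Mybl2, B-MYB, had 6.38, 6.29 and 6.58 at day 0, 10.09, 10.46 and 9.11 at day 4 and 7.04, 7.72 and 7.38 at day 7, so that it rose by 3.47 (SE 0.39, adjusted p = 7.22e-07) and then fell by 2.51 (SE 0.39, adjusted p = 5.67e-05). E2f8, a repressing E2F, rose by 3.79 at day 4 (SE 0.29, adjusted p = 4.85e-09) and fell by 1.73 at day 7 (SE 0.29, adjusted p = 0.000114). E2f2, an activating E2F, was the regulator that rose at day 7 (1.62, SE 0.19, adjusted p = 2.43e-06). Foxm1 had 7.55, 7.42 and 7.66 at day 0, 10.35, 10.54 and 9.74 at day 4 of TLR and 9.08, 9.55 and 9.53 at day 7. At day 7 of TLR, in the comparison that crosses the sets, 20 of the 36 mitotic and 26 of the 34 replication genes were higher in dEx1A than in WT and 1 of each was lower. Of all genes, 26.2% were called higher there and 28.7% lower. In BCR 22 and 32 were higher and 2 and 0 lower, against 25.8% and 25% of all genes. In LPS at day 7, within 1 set, 0 of the 36 mitotic genes were higher and 1 lower, and no replication gene passed. Of all genes, 3.3% were called higher there and 3.78% lower. Mybl2 at day 7 had 9.55, 9.70 and 9.67 in dEx1A TLR, against 7.04, 7.72 and 7.38 in WT TLR (2.26, SE 0.32, adjusted p = 1.45e-06, and 1.21 after the GC and length correction).

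Over the 15 group means, the non-members most like the mean of the members, out of 20917 genes, were Clspn (Pearson r of 0.996), Cdca2 (0.994), Cdc6 (0.994), Dlgap5 (0.991), Ckap2 (0.990), Aunip (0.990), Spag5 (0.989), Mcm10 (0.989), E2f8 (0.987) and Tmem97 (0.985). These values describe groups that share libraries and depth, and carry no test. Among the members themselves Kif20a lay closest to the mean of all 40, and Pttg1 (0.27), Cdc25b (0.45), Cenpa (0.67), Bub3 (0.86) and Anln (0.87) were the least like it. Of these 5, the Pttg1 window held no CHR form and no CCAAT, but it lies inside the annotated gene. The Cdc25b window held CCAAT without a CHR form, and the Anln window a CHR form without CCAAT. The windows of Cenpa and Bub3 held both, each with 2 CCAAT boxes. In both genes the annotated start lies upstream of the CHR forms.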

How the data were processed

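RNA of mouse splenic B cells was sequenced in 45 libraries with a stranded total RNA kit, per the labels' protocols. The submitters' processing notes list RSEM 1.3.0, DESeq2 1.22.2, STAR 2.6.0c, Trim Galore 0.6.0, FastQC 0.11.8 and R 3.5.1, and as builds mm10, GRCm38.p6 and GRCh38.p12, with no role or order. The annotation and strand setting are not stated. The authors deposited variance-stabilised log2 values, as the names of the tables say, in 2 tables of 21 and 39 columns whose 15 shared columns are identical. Low values are compressed toward the value of a count of 0 (3.04), which understates differences there.

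Gene symbols came from the files, and GC content, length and type from GENCODE M21. Genes at least 1 unit above 3.04 in at least 3 libraries were tested: 19497 in the WT table, with 14 residual degrees of freedom, and 20331 in the other, with 26. Cnksr3 was left out, because 1 of its values lay below the value of a count of 0. The means of all groups in a table entered 1 linear model (limma 3.58.1, R 4.3.3), with empirical Bayes moderation on a trend, in 26 comparisons and 5 tests of a difference between changes. A call is a two-sided Benjamini-Hochberg adjusted p below 0.05 over all genes of a comparison. Steps of the WT TLR and BCR courses and their contrasts were tested in the WT table, the rest in the other.

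The transformation was inverted to reads per gene, with 3.046 as the unrounded value of a count of 0. Of the recovered values under 20, between 94.0 and 100.0% per library were whole within 0.1, where chance gives 20.0%. They served for depth, normalized reads and marker sums, and for an alternative with limma-voom. The GC and length correction removed from each library the smooth trend of its deviations on GC content and log2 length over 9872 protein-coding genes. The scripts for tests and recovery were tested on simulated data. Alternatives were other filters, quantile normalization, no trend, only the groups compared, the replicate numbers as a block, and each library left out in turn.

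The members and lists were chosen with earlier results of these data known. Genes were named by a fixed rule: up to 3 members with the largest rise and fall among those called, members against the majority, members that did not pass where 8 or fewer did not, up to 3 with the smallest adjusted p for a difference between changes, up to 4 of another list with the largest change, the regulators Foxm1, Mybl2, E2f1, E2f8, Wee1 and Pkmyt1, and the 10 other genes whose group means went best with the member mean, with Cdk1, Ccnb1, Plk1, Mki67, Bub3 and Cdc25b followed throughout. Of the regulators named in this rule, E2f1, Wee1 and Pkmyt1 are not described here, and Foxm1 is given without a test. Between libraries of 1 group the mean chi-square per gene was 11.3 to 477, where copies would give 1, so no library was a copy of another. Whether replicates came from separate animals is not stated, so p-values measure the spread between libraries, which may be technical. Samples with the same number deviated together, every correlation being above 0.1, in TLR against BCR of WT at days 4 and 10, dEx1A LPS day 7 against day 4, dEx1A TLR against BCR at day 4 and dEx1A against WT in BCR at day 4. This pairing comes from the correlations and not from the labels, and elsewhere the numbers did not pair the libraries. It also joins dEx1A with WT libraries, which come from different mice, so it is no sign of shared animals.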

Additional observations from a re-analysis of the deposited data

Results flagged for a closer look

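Differences between the genotypes in the change from day 4 to day 7 are listed here because the difference itself passed the test, by limma with Benjamini-Hochberg adjustment. It passed for 17 members in TLR, 22 in BCR and 1 in LPS. Of all genes, 24.3% were called higher in TLR and 16.4% in BCR, and 2.18% lower in LPS. In TLR the change was more positive in dEx1A than in WT for Cdc25b (2.19, SE 0.26, adjusted p = 3.11e-07), Aurkb (1.40, SE 0.17, adjusted p = 6.12e-07) and Plk1 (2.81, SE 0.36, adjusted p = 1.26e-06). In BCR it was so for Aurkb (1.36, SE 0.17, adjusted p = 6.89e-07), Cdk1 (1.01, SE 0.13, adjusted p = 1.46e-06) and Birc5 (1.40, SE 0.19, adjusted p = 1.5e-06). In LPS the change of Kif23 was more negative in dEx1A (-0.68, SE 0.21, adjusted p = 0.0481). The LPS count lies near the share of all genes. No member passed there by limma-voom, without a trend, without a filter or with the replicate numbers as a block. After the GC and length correction the values were 1.20, 0.74 and 1.33 for Cdc25b, Aurkb and Plk1 in TLR, 0.87, 1.19 and 1.49 for Aurkb, Cdk1 and Birc5 in BCR, and -0.50 for Kif23 in LPS. The dEx1A libraries of day 7 belong to the set with fewer reads and those of day 4 to the other, while the WT libraries of each culture lie in 1 set, so that these differences and the library set cannot be told apart.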

How the results depend on the processing

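Counts are of members called, both directions together. The libraries limit what can be read: 3 per group, 15.14 to 35.61 M reads, and values rounded to 2 decimals.

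When a fit held no other groups than those compared, the count was 17 in place of 29 for TLR day 10 against day 7, 0 in place of 16 for BCR day 10 against day 7, 1 in place of 0 for TLR against BCR at day 4, 0 in place of 31 at day 10, 37 in place of 17 for WT LPS day 7 against day 4, 16 in place of 8 for dEx1A against WT in LPS at day 4, 3 in place of 1 at day 7, 0 in place of 1 in TLR at day 4, 11 in place of 17 for dEx1A LPS against TLR at day 4, 0 in place of 5 at day 7, 16 in place of 27 for dEx1A TLR against BCR at day 7, and 7 in place of 1 for the difference between genotypes in the LPS change. These fits hold fewer samples.

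After the GC and length correction it was 34 for BCR day 10 against day 7, 2, 21 and 2 for TLR against BCR at day 4, at day 7 and in the change from day 4 to day 7, 31 for WT LPS day 7 against day 4, 15 in place of 30 for dEx1A BCR day 7 against day 4, 5, 0 and 39 for dEx1A against WT in LPS at day 7 and in TLR at days 4 and 7, 7 for dEx1A TLR against BCR at day 4, 16 for dEx1A LPS against TLR at day 7, and 2, 36 and 36 for the differences between genotypes in the LPS, TLR and BCR changes. Under the same correction the sign turned for Plk1 (-0.46), Mki67 (0.53), Espl1 (-0.30), Incenp (-0.77), Spc24 (-0.55) and Ube2c (-0.81) in dEx1A TLR day 7 against day 4, for Cdk1 (0.01), Plk1 (-0.22), Mki67 (0.06), Cdc20 (-0.03) and Aurkb (-0.03) in the same step of dEx1A BCR, for Mki67 (0.06) in dEx1A against WT in BCR at day 7, and for Ccnb1 (0.32) in dEx1A LPS against TLR at day 4.

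With the replicate numbers as a block, 3 members passed in place of 0 for dEx1A TLR against BCR at day 4, where libraries of the same number deviated together. For the difference between genotypes in the LPS change, where they did not, 0 passed in place of 1. The block changed no other count by more than 1.5 times. The block together with the GC and length correction gave 35 for BCR day 10 against day 7, 1, 23 and 2 for TLR against BCR at day 4, at day 7 and in the change from day 4 to day 7, 31 for WT LPS, 18 for dEx1A BCR day 7 against day 4, 3 and 39 for dEx1A against WT in LPS and in TLR at day 7, 5 for dEx1A TLR against BCR at day 4, 19 for dEx1A LPS against TLR at day 7, and 2, 36 and 36 for the LPS, TLR and BCR differences between genotypes, and turned the same 13 signs to the same values.

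Quantile normalization gave 25 for BCR day 10 against day 7, 6 for TLR against BCR at day 7, 2 and 0 for dEx1A against WT in LPS at day 7 and in TLR at day 4, and 1 for dEx1A TLR against BCR at day 4. The stricter filter gave 2 and 3 for dEx1A against WT in LPS at day 7 and in TLR at day 4, 1 for dEx1A TLR against BCR at day 4 and 2 for the LPS difference between genotypes. No filter gave 5 for dEx1A against WT in LPS at day 4 and 0 for the LPS difference, and no trend gave 0 for it too. Limma-voom gave 2 for TLR against BCR at day 4, 3 for dEx1A against WT in TLR at day 4, 1 for dEx1A TLR against BCR at day 4, 2 for dEx1A LPS against TLR at day 7 and 0 for the LPS difference. Without BCR libraries 1 and 2 of day 10, a setting chosen after seeing the data, TLR against BCR at day 10 gave 0. It leaves 1 BCR library, the one with the lowest member mean, which is assumed to vary like the other groups. The cause of these changes was not tested. The other 224 counts under these settings stayed within 1.5 times.

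Leaving out 1 library in turn gave 9 to 15 for BCR day 10 against day 7, 0 to 3 and 12 to 34 for TLR against BCR at days 7 and 10, 0 to 1 and 0 to 6 for the differences between their changes, 10 to 16 for WT LPS day 7 against day 4, 3 to 9 and 0 to 7 for dEx1A against WT in LPS and in TLR at day 4, 0 to 4 for dEx1A TLR against BCR at day 4, 0 to 6 for dEx1A LPS against TLR at day 7 and 0 to 2 for the LPS difference between genotypes. For the day 4 rise over day 0 it gave 37 to 38 in TLR, 38 in BCR and 40 in LPS, and for the TLR and BCR falls at day 7, 36 to 39 and 27 to 33.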
